A study of Mus musculus with 12 samples.

Results

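The genes described are the DNA methylation and chromatin regulators among the genes deposited for CD31+ cells of mouse lung. They were chosen by name: protein-coding genes of the Tet, Dnmt, Uhrf, Mbd, Kmt, Setd, Ezh, Prdm, Kdm, Kat, Hdac, Sirt, Brd, Smarc, Arid, Chd, Asxl and L3mbtl families that appear in any of the 4 deposited tables. This gave 44 genes of the 9338 genes in the tables, out of 146 annotated protein-coding genes with such names. RNA of 12 male C57Bl/6J mice was sequenced, 1 library per mouse, in 4 groups of 3. All mice carried Tet2 fl/fl alleles and all received tamoxifen (40 mg/kg on each of 3 days) when they were 6 to 8 weeks old. TET2 KO mice also carried Cdh5-CreERT2, a tamoxifen-inducible Cre driven by an endothelial promoter, and WT mice were Cre negative. From a week later, mice ate chow (13% of calories from fat) or a high fat diet (HFD, 60% of calories from fat) for 20 weeks, and lungs were taken at 30 weeks of age. The groups were thus WT chow, TET2 KO chow, WT HFD and TET2 KO HFD, and values below are given for replicates 1, 2 and 3 in that order. Libraries held between 36.7 and 56.8 M reads on genes.

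TET enzymes oxidise 5-methylcytosine and so start the removal of DNA methylation, which DNMT enzymes write and UHRF1 helps to maintain. Methyl-CpG binding proteins read the mark, while histone methyltransferases, demethylases, acetyltransferases and deacetylases set and remove marks on the histones around which DNA is wound. Bromodomain proteins bind acetylated histones, and ATP-dependent remodelers of the SMARC and CHD families move or exchange nucleosomes. Names group the genes but do not fix what each does: several PRDM proteins are DNA-binding transcription factors, and ARID5A is also an RNA-binding protein.

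The tables hold only genes with an unadjusted p under 0.05 in the authors' own test of that pair of groups. A gene that is not listed was not analysed here, and counts below describe the listed genes, not the whole families. The gene that the Cre recombines, Tet2 (ENSMUSG00000040943, mm10 chr3:133463679-133545139), was listed for HFD against chow in WT only, so its level in TET2 KO libraries was not analysed here. CD31 selection enriches endothelial cells without purifying them. Pecam1, which encodes CD31, was at 44.1, 36 and 79.9 FPKM (fragments scaled to gene length and library size) in WT chow, 146, 130 and 87.2 in WT HFD, and 94.3, 66.6 and 66.6 in TET2 KO HFD. The club cell gene Scgb1a1 stood at 4165, 5481 and 5467 FPKM in WT chow and at 3989, 1991 and 4096 in WT HFD, so RNA of airway epithelium was present in these libraries. Endothelial markers thus differed between groups, and their values are given beside each comparison. In bulk RNA, fewer cells of a type and less RNA per cell cannot be told apart.

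CpG sites are where DNA methylation is written, so the CpG content of the genes' own promoters is given first. Promoter sequence came from RefSeq on GRCm38.p6, and 32 of the 44 genes matched. Some genes have several starts in that table (10 of the 32), and the most upstream one was taken. Genes whose start lay more than 1000 bases from the start of the annotated gene were left out, a limit chosen after the data were seen, which removed Hdac4, Kat6b, Prdm8, Setd5, Sirt1 and Tet1. Of the 26 genes that remained, 11 had a window wholly before the annotated gene, and the other windows lay inside it or overlapped its first bases. In the 250 bases before the start, the dinucleotide CG occurred a median of 23.5 times in the 26 genes against 12 times in 14194 protein-coding genes chosen in the same way. At least 10 CG were present in 24 of 26 genes (92.3%), and in 56.7% of those protein-coding genes. Those protein-coding genes were taken whether or not they were listed or expressed here, while all 26 were listed. The higher CG count is thus not shown to be particular to these regulators. CG reads the same on both strands. The range ran from 6 in Hdac7 and Kat2b to 51 in Tet2, whose start in the table lies 749 bases inside the annotated gene. The windows shown lie wholly before the annotated gene and belong to L3mbtl1 and Chd5, which were among the genes that fell most on HFD in WT mice, and Prdm16, which was among those that rose most. L3mbtl1 is at chr2:162943215-162943464 (plus strand, 11 CG), Chd5 is at chr4:152338401-152338650 (plus strand, 21 CG) and Prdm16 is at chr4:154636874-154637123 (minus strand, 22 CG). Capitals mark CG, and each sequence is written 5′ to 3′ on the gene's strand.
L3mbtl1: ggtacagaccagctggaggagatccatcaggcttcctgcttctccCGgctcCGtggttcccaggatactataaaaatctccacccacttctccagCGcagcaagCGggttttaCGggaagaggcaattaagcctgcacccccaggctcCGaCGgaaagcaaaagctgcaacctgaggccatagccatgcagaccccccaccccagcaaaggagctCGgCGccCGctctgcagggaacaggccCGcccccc
Chd5: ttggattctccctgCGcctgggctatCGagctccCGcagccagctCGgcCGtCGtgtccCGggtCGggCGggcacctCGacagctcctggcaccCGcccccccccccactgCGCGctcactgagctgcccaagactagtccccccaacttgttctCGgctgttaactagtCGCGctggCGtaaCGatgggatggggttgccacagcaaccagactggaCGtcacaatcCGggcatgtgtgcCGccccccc
Prdm16: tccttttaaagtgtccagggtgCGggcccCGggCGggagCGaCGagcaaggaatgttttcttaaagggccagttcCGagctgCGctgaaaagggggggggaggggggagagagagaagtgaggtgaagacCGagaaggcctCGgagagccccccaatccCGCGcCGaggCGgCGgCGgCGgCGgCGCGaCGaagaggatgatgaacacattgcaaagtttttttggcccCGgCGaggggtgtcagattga
Methylation data were not analysed here, and a CG in a sequence says nothing of whether it was methylated.

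In all, 44 of the 146 named genes were listed, and the number listed differed between families, which was not tested. None of the 5 Dnmt genes was listed in any table, nor were Tet3, Uhrf1 or Ezh2. All 5 Kmt2 genes, the MLL group of SET-domain genes, were listed at least once. Of 18 Kdm genes 4 were listed, of 11 Hdac genes 4, of 7 Sirt genes 1, of 10 Chd genes 4, of 13 Smarc genes 2 and of 10 Arid genes 1. The comparison of genotypes on chow listed 4 (2.74%) of the 146 named genes, where 4.13% of all 21951 annotated protein-coding genes were listed. For HFD against chow in WT the share was 27.4% against 25% of all, for TET2 KO against WT on HFD 17.8% against 13.6%, and for HFD against chow in TET2 KO 2.74% against 5.63%. The share was thus above that of all protein-coding genes for WT mice by diet and for genotypes on HFD. It was below that of all protein-coding genes in the tables with 4 genes each, and these differences were not tested. All annotated genes were counted, whether or not these cells expressed them, so the shares are not shares of the genes that could be listed.

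The 40 genes listed for WT mice covered a wide range of levels on chow. Mean FPKM in WT chow was highest for Kdm6b (148 ± 7.6, SD, n = 3) and Brd2 (142 ± 18), which did not differ beyond their spread. Chd4 (81.2 ± 7.1) and Kmt2e (52 ± 4.5) followed. The median gene stood at 10 FPKM. Tet2 was at 5.02 ± 0.25 FPKM and Tet1 at 0.222 ± 0.054 FPKM. The lowest was Asxl3, which rested on 2, 1 and 7 reads. The genes were also long: the median length used for counting was 8497 bases in the 40 genes and 4083 bases in all listed protein-coding genes.

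HFD against chow in WT mice was the comparison with the most genes listed, and most of the chromatin regulators in it were lower on HFD. Of 40 genes, 25 fell and 13 rose at an unadjusted p under 0.05 (edgeR's quasi-likelihood test), and Setd5 (0.31) was among those that did not pass. The median log2 fold change was -0.37 in these genes and 0.36 in all 5491 listed protein-coding genes, and 65% of the genes were lower against 42.5% of listed protein-coding genes. Over all 7330 listed genes, of every biotype, the median was -0.32 and 52.7% were lower. Of these, 91.6% were called, 49.2% as lower and 42.4% as higher, so that being called follows from being listed. After adjustment, 10 of the 40 (25%) had an adjusted p under 0.05, 8 lower and 2 higher, where 18.7% of all listed genes did. Of the 38 called genes 9 (23.7%) passed in at most 2 of the 6 fits that left out a library, as did 23.4% of all called genes. They were Uhrf2, Mbd2, Setd4, Ezh1, Setd1a, L3mbtl3, Asxl3, Arid5a and Smarcad1. Every library of one diet lay beyond every library of the other for 37 of the 40, against 86.5% of all listed genes.

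**Figure D1:**
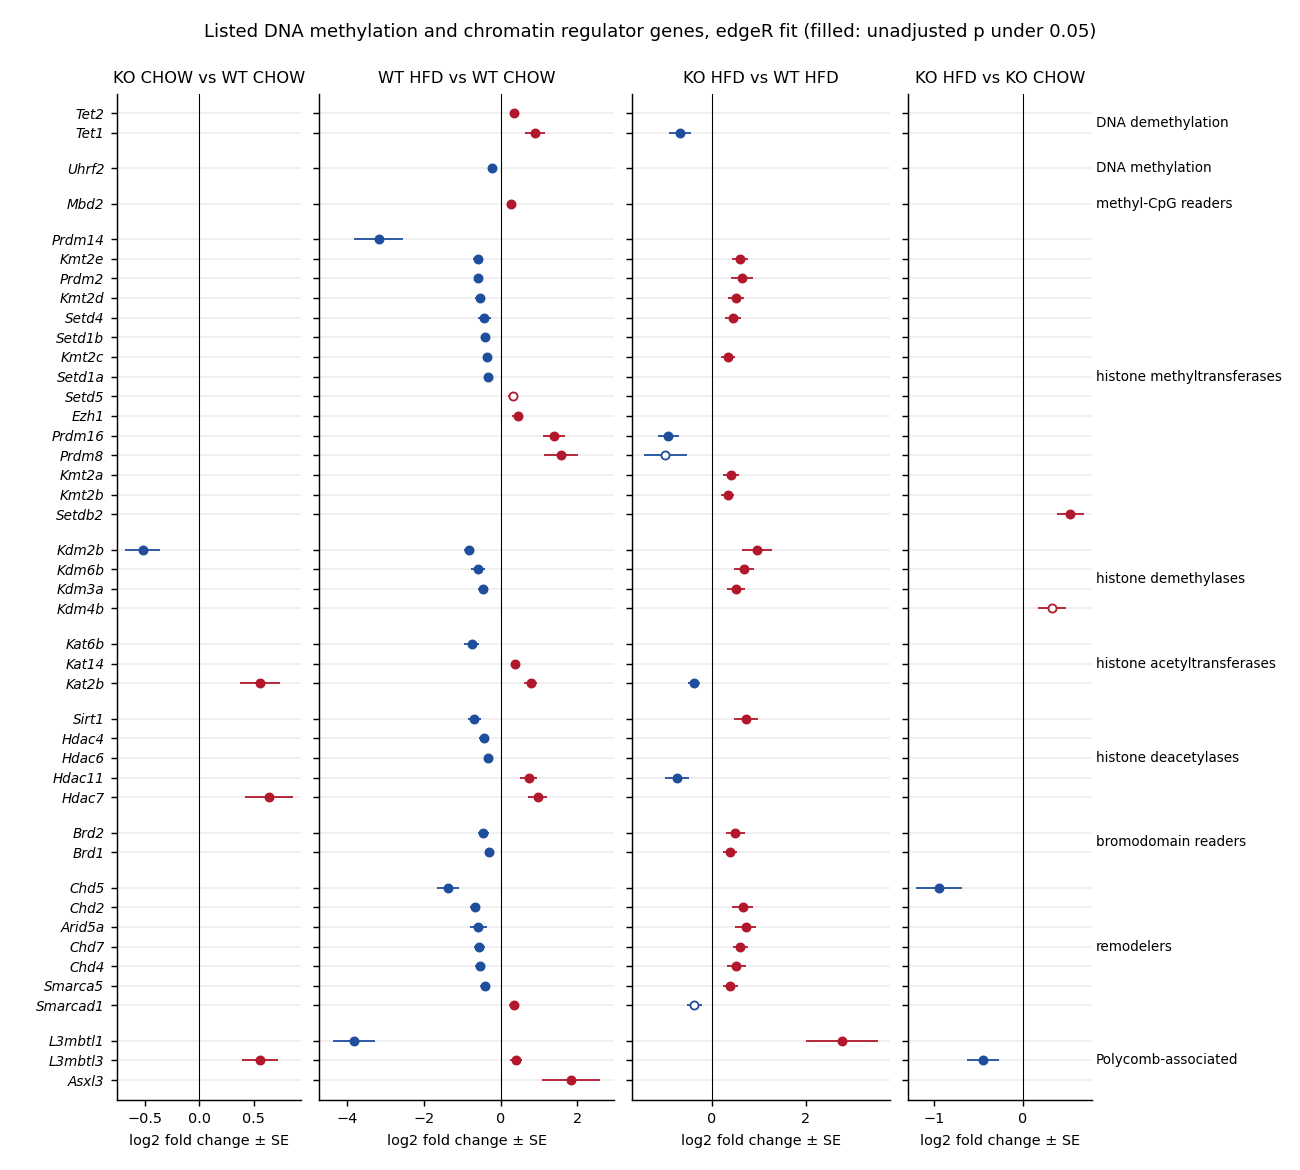
Log2 fold change ± SE (horizontal axes, which differ in scale between panels) of 43 of the listed genes in the 4 comparisons, by family, with filled points for an unadjusted p under 0.05 and no point where a gene was not listed. Most points lie left of zero (blue) for WT HFD against WT chow (25 of the 39 shown), and right of zero (red) for TET2 KO HFD against WT HFD (19 of the 25 shown).

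Tet2 and Tet1, the TET genes that were listed, had higher counts in WT HFD, each at an unadjusted p under 0.05 and neither after adjustment. Tet2 normalized counts were 4296, 4463 and 4750 in WT HFD and 3326, 3630 and 3642 in WT chow. Every WT HFD library lay above every WT chow library, and the log2 fold change was 0.35 (SE 0.10, adjusted p = 0.079). Counts over the whole Tet2 gene include reads from exons that Cre does not touch, although neither group carried Cre. Tet1 (chr10:62804570-62908996), a TET enzyme with a CXXC domain, was at 284, 313 and 208 normalized counts in WT HFD and 169, 103 and 158 in WT chow. Its groups did not overlap either, and Tet1 rose by 0.90 on the log2 scale (SE 0.26, adjusted p = 0.077). Among the writers and readers of DNA methylation, Uhrf2, an E3 ligase related to UHRF1, fell slightly (4230, 4171 and 3980 in WT HFD against 4785, 4846 and 4873 in WT chow). The log2 fold change of Uhrf2 was -0.23 (SE 0.09, adjusted p = 0.17). Mbd2, which binds methylated CpG and recruits the NuRD repressor complex, was at 5171, 5582 and 4898 against 4266, 4251 and 4449, with 0.27 (SE 0.10, adjusted p = 0.14) as the difference on the log2 scale. The calls of both genes were fragile: neither passed with TMM on the listed counts, Uhrf2 passed in 0 and Mbd2 in 1 of the 6 fits that left out a library.

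Among genes of the histone methyltransferase and PRDM families, 8 of 12 fell and 3 rose. Prdm2, a PR-domain gene also known as RIZ, stood at 7361, 8086 and 7128 normalized counts in WT HFD and at 11325, 11260 and 11470 in WT chow. The difference was far larger than the spread between mice, and Prdm2 changed by -0.59 on the log2 scale (SE 0.10, adjusted p = 0.037). Kmt2e, an MLL-group gene whose SET domain differs from those of its relatives, fell by 0.59 as well (SE 0.13, adjusted p = 0.048), from 24893, 21310 and 21787 to 13901, 16896 and 14296. Kmt2c, Kmt2d, Setd1a and Setd1b, whose products belong to complexes that methylate histone H3 at lysine 4, fell by between 0.32 and 0.55 on the log2 scale, and Setd4 fell by 0.43. Setd4 stood at -0.27 without WT chow replicate 1 and was called in 1 of the 6 fits that left out a library. The risers were Ezh1, Prdm16 and Prdm8. Prdm16 (chr4:154316125-154636873), a transcription factor known from brown fat and arterial endothelium, was at 359, 500 and 353 in WT HFD and 109, 142 and 211 in WT chow, a 2.63-fold difference (log2 1.39, SE 0.28, adjusted p = 0.043). All 3 HFD libraries exceeded the highest chow library for Prdm16. Prdm8, a PRDM factor known from neurons, was at 79.7, 128 and 40.7 against 31.4, 20.4 and 31.2 (log2 fold change 1.57, SE 0.45, adjusted p = 0.076). Ezh1, a catalytic subunit of Polycomb repressive complex 2, was at 4176, 3746 and 2990 against 2959, 2532 and 2548 (0.44, SE 0.15, adjusted p = 0.11). The highest chow library of Ezh1 lay just under the lowest HFD library. Prdm14 fell from 27, 47 and 59 reads to 3, 3 and 10 reads.

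All 3 listed histone demethylases fell in WT HFD. Kdm2b (chr5:122870665-122989823), a CXXC protein that binds unmethylated CpG and a Polycomb partner, was at 1822, 2104 and 2080 normalized counts in WT HFD and 3849, 3301 and 3495 in WT chow. Its log2 fold change was -0.83 (SE 0.12, adjusted p = 0.036), and the groups stood well apart. Kdm6b, which removes methyl groups from lysine 27 of histone H3 and is induced by inflammatory signals in macrophages, was at 21444, 28938 and 35550 against 41281, 42033 and 45699. The HFD libraries of Kdm6b were spread widely but all lay below chow (log2 fold change -0.59, SE 0.19, adjusted p = 0.099). Kdm3a, a demethylase of lysine 9, fell by 0.46 on the log2 scale (SE 0.12, adjusted p = 0.062).

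Acetyltransferases and deacetylases moved both ways. Kat2b (chr17:53566861-53672720), which encodes the coactivator PCAF, was at 4100, 3972 and 3884 in WT HFD and 2126, 1979 and 2868 in WT chow, so Kat2b rose by 0.78 on the log2 scale (SE 0.16, adjusted p = 0.042). Kat6b, an acetyltransferase of the MYST family, fell from 4273, 7031 and 6021 to 3066, 3294 and 3904 (-0.76, SE 0.20, adjusted p = 0.065). Kat14, a subunit of the ATAC acetyltransferase complex, rose by 0.38 (SE 0.11, adjusted p = 0.087). Hdac7, a class IIa deacetylase known for its role in endothelial integrity, was at 13012, 11907 and 7316 against 5905, 4233 and 6325. The third HFD library of Hdac7 lay nearer to chow than the other 2 did (log2 fold change 0.97, SE 0.25, adjusted p = 0.063). Hdac11 was at 148, 174 and 127 against 90.4, 75.9 and 105 (0.73, SE 0.23, adjusted p = 0.091). Sirt1, an NAD-dependent deacetylase, fell from 6132, 6263 and 7195 to 3364, 4963 and 3823 (-0.69, SE 0.17, adjusted p = 0.055). Hdac4 and Hdac6 also fell, by 0.44 and 0.33 on the log2 scale.

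Of 7 remodeler-family genes, 6 fell and Smarcad1 rose (0.36, SE 0.13). Chd5 (chr4:152338651-152390194), a CHD remodeler best known from neurons and as a tumour suppressor, stood at 529, 395 and 691 in WT HFD and 1029, 1916 and 1235 in WT chow. Its log2 fold change was -1.37 (SE 0.29, adjusted p = 0.046). Chd2 was at 9399, 11839 and 8947 against 17409, 15736 and 14880 (-0.67, SE 0.14, adjusted p = 0.047), with no overlap. Arid5a, Chd7, Chd4 and Smarca5 fell by between 0.40 and 0.58, although the Arid5a libraries overlapped. Brd2 and Brd1 fell by 0.45 and 0.31.

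The largest difference of the 40 genes was in L3mbtl1 (chr2:162943472-162974522), a reader of methylated histone lysines that compacts chromatin. Its normalized counts were 25.8, 18 and 25.7 in WT HFD and 122, 383 and 498 in WT chow. All chow libraries were several times higher, although they differed widely among themselves (log2 fold change -3.83, SE 0.55, adjusted p = 0.036). L3mbtl3, a paralogue that binds methylated lysines, went the other way at 1914, 1744 and 1396 against 1396, 1147 and 1283 (0.40, SE 0.15, adjusted p = 0.14). Asxl3, a Polycomb-associated gene, was called higher but rested on 24, 14 and 5 reads in WT HFD, and its libraries overlapped (log2 fold change 1.84, and 2.96 without WT chow replicate 3).

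Every listed endothelial marker moved with the diet comparison in WT. Of 18 endothelial markers, 16 were listed and all 16 rose, by between 0.86 and 3.00 on the log2 scale with a median of 1.57. Their summed FPKM was 1744, 1401 and 1050 in WT HFD and 369, 330 and 853 in WT chow, with Cldn5 the most abundant, and no listed marker was at 0 in a library. The third WT chow library had more than 2 times the endothelial marker sum of the other chow libraries. All 8 natural killer cell markers rose as well (median 1.64, summed FPKM 132, 103 and 171 against 60, 34 and 40.4, led by Gzma). Of the T cell markers 2 of 14 were listed and rose (Cd8a and Lck, summed FPKM 51.4, 42.9 and 34.6 against 37.1, 23.6 and 26.3). Of 12 monocyte and macrophage markers 6 were listed, of which 3 rose and 3 fell, with summed FPKM of 1281, 966 and 1711 against 1663, 3057 and 2611 led by Chil3. Of 15 lung epithelial markers 7 were listed, 3 rising and 2 falling, led by Scgb1a1 (summed FPKM 4475, 2301 and 4662 against 4389, 5694 and 5895). The neutrophil gene Retnlg fell (53.3, 121 and 229 FPKM against 489, 361 and 269). Of 11 fibroblast and smooth muscle markers 4 were listed, 2 rising and 1 falling (summed FPKM 3.38, 2.16 and 2.63 against 2.62, 2.21 and 3.11, led by Tagln). Of 7 mesothelial markers 2 were listed and 1 fell (54.8, 38.9 and 61 against 78.8, 132 and 93.2, led by Krt19), and of 15 proliferation markers 3 were listed and 2 fell (73.6, 92 and 95.6 against 113, 127 and 125, led by Pcna). Of 14 immediate early and stress genes that tissue dissociation is known to induce, 7 were listed and all rose (summed FPKM 2813, 2897 and 3329 against 2126, 2006 and 2371, led by Fos). Malat1, a nuclear RNA, was at 250, 300 and 248 FPKM in WT HFD and at 467, 378 and 405 in WT chow. The part of these cell type and handling markers in the chromatin regulator differences was not tested. Without WT chow replicate 3, the library with the high endothelial sum, 32 of the 40 genes were called, as were 75.1% of all listed genes. Leaving out any 1 library left between 25 and 33 called, with 25 (63.4% of all listed genes) without WT HFD replicate 1, and all 40 kept their direction.

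**Figure D2:**
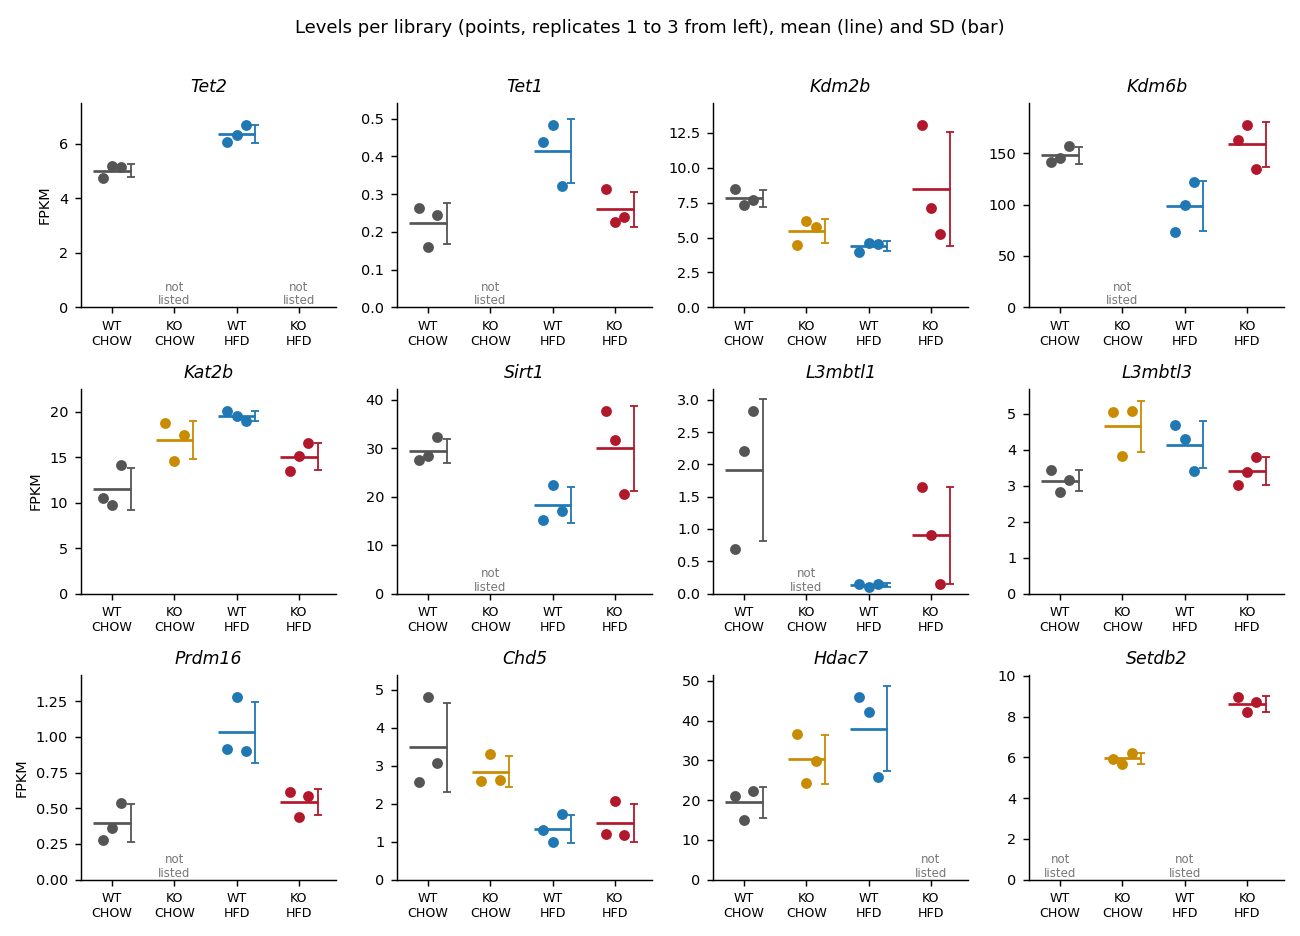
FPKM (vertical axes from zero) of 12 of the genes in each library, with points for replicates 1 to 3, a line for the group mean and a bar for the SD. WT HFD libraries are lowest for Kdm2b, Kdm6b, Sirt1 and L3mbtl1 by mean, and highest for Tet1, Kat2b and Prdm16.

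TET2 KO against WT on HFD compared the genotypes in mice on the fatty diet. Of 26 listed genes, 20 rose and 4 fell at an unadjusted p under 0.05, and Prdm8 and Smarcad1 did not pass. The median log2 fold change was 0.48 in these genes and -0.40 in the 2996 listed protein-coding genes, and 76.9% of the genes were higher against 42.4%. Over all 3939 listed genes the median was 0.33 and 52.2% were higher. Among these 82.3% were called, 43.1% as higher and 39.1% as lower. Without WT HFD replicate 3 the called genes split evenly, with 6 higher and 6 lower, and 55.9% of all listed genes were called. All 26 genes kept their direction in that fit, so only the calls changed. No gene of the 26, nor any other listed gene, had an adjusted p under 0.05 (0% of 3939), and the lowest adjusted p was 0.24. DESeq2 called 25 of the 26 at an unadjusted p under 0.05 and limma-trend 20, where they called 91.8% and 80.7% of all listed genes. The DESeq2 calls were largely set in advance, since the authors' DESeq2 test of the same counts chose the listed genes. Of the 24 called genes 15 (62.5%) passed in at most 2 of the 6 fits that left out a library, as did 40.2% of all called genes. Libraries did not overlap for 21 of the 26, against 74.7% of listed genes.

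The only TET gene listed here was Tet1, at 204, 147 and 154 normalized counts in TET2 KO HFD and 282, 313 and 206 in WT HFD. The lowest WT library lay next to the highest TET2 KO library, and the log2 fold change was -0.67 (SE 0.23, adjusted p = 0.25). The other genes that fell were Prdm16, Hdac11 and Kat2b. Prdm16 was at 240, 172 and 227 in TET2 KO HFD and 356, 500 and 351 in WT HFD (-0.92, SE 0.22, adjusted p = 0.24). Hdac11 was at 67.4, 90.3 and 110 against 147, 174 and 127 (-0.74, SE 0.26, adjusted p = 0.25). Kat2b was at 2779, 3073 and 3337 against 4068, 3971 and 3861, a smaller difference with little spread among WT mice (-0.37, SE 0.13, adjusted p = 0.25). Tet1, Hdac11 and Kat2b were each called in 2 of the 6 fits that left out a library.

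The listed histone demethylases and bromodomain genes and most listed genes of the methyltransferase families rose. All 3 listed demethylases, of 18 annotated, rose, as did Brd1 (0.39) and Brd2 (0.50). So did 7 of 9 listed methyltransferase and PRDM genes, of 34 annotated, and 5 of 6 listed remodeler-family genes. Kdm3a and Brd2 were each called in 2 of the 6 fits that left out a library. Kdm2b was at 6023, 3235 and 2370 in TET2 KO HFD and 1808, 2104 and 2068 in WT HFD. The first TET2 KO library was more than 2 times the third, and the log2 fold change of 0.96 (SE 0.32, adjusted p = 0.25) fell to 0.49 without TET2 KO HFD replicate 1. Kdm6b was at 47885, 51620 and 38980 against 21281, 28928 and 35342 (0.69, SE 0.21, adjusted p = 0.24). For Kdm6b the third library of each group came closest to the other group. Arid5a, which stabilises inflammatory transcripts, was at 20317, 15832 and 16231 against 8731, 14021 and 8954 (0.72, SE 0.22, adjusted p = 0.24). Chd2 was at 20293, 15060 and 12125 against 9328, 11834 and 8895 (0.66, SE 0.22, adjusted p = 0.24). The lowest TET2 KO library of Chd2 lay close to the highest WT library. L3mbtl1 was at 292, 158 and 26.2 against 25.6, 18 and 25.5 (2.77, SE 0.76, adjusted p = 0.24). The third TET2 KO library of L3mbtl1 was at the WT level, so the difference rested on the other 2 mice. Kmt2a, Kmt2b, Kmt2c, Kmt2d and Kmt2e all rose, by between 0.34 and 0.61, although Kmt2b and Kmt2c, like Brd1, Chd4 and Setd4, were each called in 1 of the 6 fits that left out a library. Setd4 rose by 0.45 and Chd7 by 0.61, while Sirt1 (0.73), Prdm2 (0.65), Chd4 (0.52) and Brd2 (0.50) rose with libraries of the groups overlapping. Without TET2 KO HFD replicate 1 the values of Chd4 (0.33), Kdm3a (0.32, from 0.52) and Kmt2b (0.23, from 0.34) were smaller by more than 1.5 times and did not pass.

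The endothelial markers moved in this comparison too. Of 18, 14 were listed and 12 fell, with a median log2 fold change of -1.02 and a range from -1.91 (Aplnr) to -0.67 (Pecam1). Their summed FPKM was 1024, 555 and 603 in TET2 KO HFD and 1892, 1480 and 1107 in WT HFD, led by Cldn5. Ccr2, the only monocyte and macrophage marker listed, was at 3.65, 8.76 and 9.16 against 11, 16.2 and 17.4 FPKM and fell, and the lung epithelial markers Ager and Hopx fell (summed FPKM 48, 28.8 and 44.1 against 85.3, 73.3 and 70.3). Of the dissociation genes Jun and Socs3 fell (467, 382 and 319 against 588, 559 and 561). Malat1 was at 381, 393 and 373 FPKM in TET2 KO HFD and at 250, 300 and 248 in WT HFD, with no overlap. Ncr1, Msln and Pcna were listed and did not pass the test, and no T cell, B cell, neutrophil or fibroblast marker was listed. The part of these markers in the result was not tested. The count of 24 called genes changed with single libraries: it was 9 without TET2 KO HFD replicate 1, 7 without TET2 KO HFD replicate 2, 7 without WT HFD replicate 1, 15 without WT HFD replicate 2 and 12 without WT HFD replicate 3, and all 26 kept their direction. The share of all listed genes called fell likewise, to between 37.8% and 56.8% in these 5 fits.

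**Figure D3:**
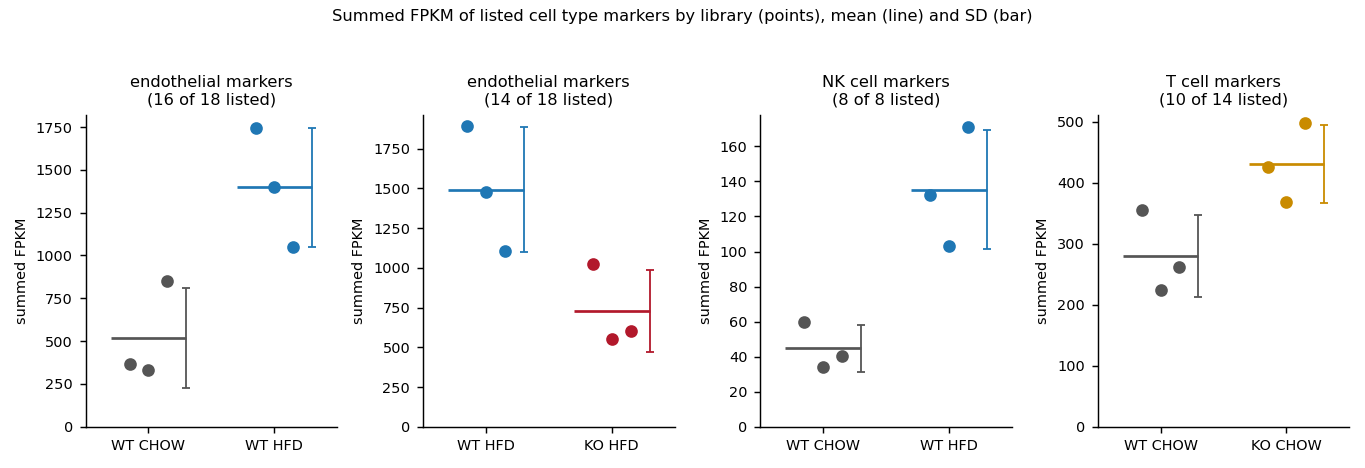
Summed FPKM (vertical axes from zero) of the listed markers of a cell type in each library, with points for replicates 1 to 3, a line for the mean and a bar for the SD. Each sum is over the markers listed for that comparison (16 and 14 endothelial markers), so WT HFD has a sum in each. The endothelial sum is higher in every WT HFD library (1050 to 1744) than in the WT chow libraries (330 to 853), and lower in every TET2 KO HFD library (555 to 1024) than in WT HFD (1107 to 1892).

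WT HFD libraries entered both comparisons described so far, so a gene that was low in them had to be lower in the former and higher in the latter. For 24 genes listed in both, values are therefore given side by side in FPKM and no agreement is read from them. The 18 genes lower in WT HFD than in WT chow were higher in TET2 KO HFD, and the other 6 the reverse. Sirt1 averaged 29.3 FPKM in WT chow, 18.1 in WT HFD and 30 in TET2 KO HFD. Kmt2e averaged 52, 34.3 and 52.2 FPKM in the same order, and Kdm6b 148, 98.3 and 159. Tet1 averaged 0.222, 0.414 and 0.26 FPKM, and Prdm16 0.395, 1.03 and 0.547. L3mbtl1 averaged 1.91, 0.132 and 0.901. Mean log2 FPKM in TET2 KO HFD, which shares no library with WT chow, lay within 0.5 of that in WT chow for 22 of the 24 (91.7%), and for 77.6% of the 2915 genes listed in both tables that had no library at 0. Genes in both tables were selected for a WT HFD level that differed from both other groups, so nothing about the regulators is read from this closeness. The exceptions were L3mbtl1 (-1.42) and Prdm8 (0.57). The ranges of TET2 KO HFD and WT chow overlapped for all 24 genes, and for 92.6% of the 2947 genes listed in both tables.

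**Figure D4:**
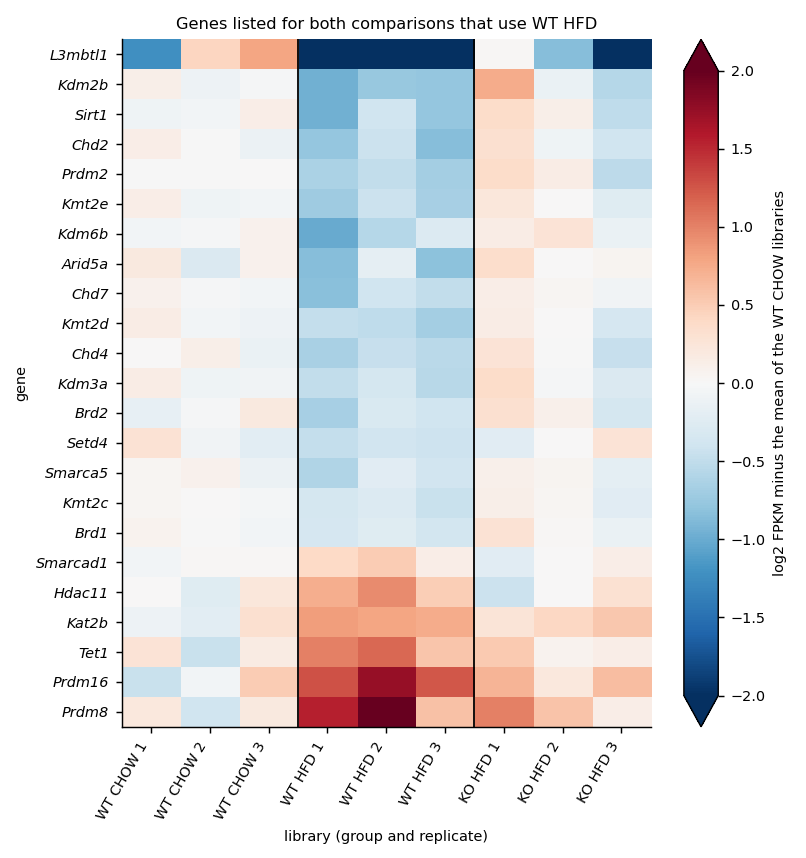
Log2 FPKM minus the mean of the WT chow libraries (colour) for 23 of the 24 genes (rows) in 9 libraries (columns), with colours saturating at 2. The WT HFD columns are blue for the upper 17 genes and red for the lower 6, and TET2 KO HFD replicate 1 is redder than replicate 3 for most of the upper genes.

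TET2 KO and WT mice on chow differed in few listed regulators, namely Kdm2b, Kat2b, L3mbtl3 and Hdac7. All 4 passed an unadjusted p under 0.05, as did 76.6% of the 1298 listed genes, and none had an adjusted p under 0.05, as was so for every listed gene (0%, lowest adjusted p 0.79). DESeq2 and limma-trend called all 4, and 87.8% and 77.5% of all listed genes. Listing already rested on the authors' DESeq2 test of these counts, so nothing is read from these calls. The libraries did not overlap for any of the 4, against 74.7% of listed genes. Kdm2b was at 1975, 2681 and 2514 normalized counts in TET2 KO chow and 3771, 3177 and 3335 in WT chow, so that all TET2 KO libraries lay below WT (-0.52, SE 0.16, adjusted p = 0.79). Kat2b was at 3683, 2832 and 3409 against 2083, 1904 and 2736 (0.56, SE 0.18, adjusted p = 0.82). The lowest TET2 KO library of Kat2b was barely above the highest WT library. L3mbtl3 (chr10:26274468-26375971) was at 1986, 1483 and 1993 against 1368, 1104 and 1224 (0.56, SE 0.17, adjusted p = 0.79). Hdac7 was at 10019, 6544 and 8129 against 5786, 4073 and 6035 (0.64, SE 0.22, adjusted p = 0.84). Without WT chow replicate 2, Kat2b and Hdac7 no longer passed and 2 of the 4 were called, as were 37.2% of all listed genes. Hdac7 also did not pass without TET2 KO chow replicate 1, nor Kat2b without WT chow replicate 1.

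Other cell types' markers differed in this chow comparison. Of 14 T cell markers 10 were listed and 8 rose in TET2 KO chow (summed FPKM 426, 369 and 497 against 355, 224 and 262, led by Trbc2). The natural killer markers Nkg7 and Prf1 rose (28.5, 26.5 and 40.3 against 23.7, 14.8 and 17.7), as did Ccr2 (9.55, 12.9 and 12.3 against 5.95, 4.42 and 6.79). Of 7 mesothelial markers 5 were listed and fell (1.52, 1.4 and 0.782 against 4.68, 9.01 and 1.59, led by Msln), and of 11 fibroblast and smooth muscle markers 4 were listed and fell (3.05, 3.18 and 3.86 against 8.12, 9.18 and 4.33, led by Dcn). Of the lung epithelial markers 4 were listed and fell (2880, 2363 and 3105 against 4300, 5643 and 5634, led by Scgb1a1). Of the endothelial markers only Ednrb and Ramp2 were listed, and 1 rose (112, 52 and 51.1 against 28.4, 27.9 and 55.4, led by Ramp2). The part of these markers in the 4 gene differences was not tested.

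HFD against chow in TET2 KO mice listed 4 genes, of which 3 passed the test where 77% of the 1628 listed genes did. None of the 4 had an adjusted p under 0.05, and 0.0614% of listed genes did. The libraries were apart for all 4, against 72.6% of listed genes. Chd5 was at 465, 801 and 453 normalized counts in TET2 KO HFD and 1005, 1274 and 1010 in TET2 KO chow (log2 fold change -0.94, SE 0.26, adjusted p = 0.71). Chd5 was thus lower on HFD in both genotypes, whereas L3mbtl3 had opposite directions. Of the 611 genes listed for both diet comparisons, 430 (70.4%) had the same direction. Setdb2, a methyltransferase of histone H3 lysine 9 known from interferon and macrophage responses, was at 1456, 1333 and 1420 against 968, 924 and 1010. Setdb2 had the tightest groups of the 4 (0.54, SE 0.15, adjusted p = 0.71). L3mbtl3 was at 1181, 1319 and 1484 against 1975, 1494 and 1980 (-0.45, SE 0.18, adjusted p = 0.73), with only a narrow gap between the groups, and was called in 2 of the 6 fits that left out a library. Kdm4b, a demethylase of histone H3 lysine 9, did not pass at 3285, 2607 and 3000 against 2453, 2215 and 2382 (0.33, SE 0.16, adjusted p = 0.83). When TMM on the listed counts replaced the authors' size factors, all listed genes shifted by a median of 0.248, L3mbtl3 stood at -0.21 and no longer passed, and Kdm4b passed.

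Marker levels differed here as well. Of 12 monocyte and macrophage markers 5 were listed and 4 fell on HFD (summed FPKM 2743, 4918 and 3993 against 7223, 8238 and 5492, led by Lyz2), and 5 of 14 T cell markers fell (149, 118 and 161 against 218, 187 and 255, led by Tcf7). Mmp8, a neutrophil gene, fell (2.05, 3.92 and 6.68 against 8.53, 14.4 and 9.01). Of 7 mesothelial markers 6 were listed and 5 rose (Msln averaging 2.38 against 0.438 FPKM). The mesothelial sum was lower by mean (44.8, 90.1 and 46.3 against 133, 105 and 61.2) and consisted mostly of Krt19, which averaged 54.7 against 98.4 FPKM and did not pass (-0.85). Among fibroblast markers 3 of 5 listed rose (4.36, 4.48 and 8.79 against 2.74, 2.65 and 3.33, led by Dcn). The endothelial marker Emcn (7.25, 3.45 and 3.55 against 2.67, 2.6 and 1.96) and the B cell gene Blk (67.3, 65 and 90.8 against 41.7, 49.6 and 65) rose. Gzma did not pass (12.2, 53.1 and 54.5 against 15.5, 12.5 and 26.9), and of the epithelial genes Epcam fell and Muc5b rose (9.91, 7.5 and 11.7 against 15.5, 14 and 11.7 together). Their part in the result was not tested.

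An interaction of diet and genotype was fitted for 4 genes that had counts in all 12 libraries, within a fit over 975 such genes. Such counts came only through being listed in tables that together cover all 4 groups. The genes were thus selected by the same differences that the interaction compares. Its p-values therefore cannot decide whether the diet difference depended on genotype. Kdm2b averaged 7.82 FPKM in WT chow and 4.4 in WT HFD, while TET2 KO chow stood at 4.49, 6.19 and 5.74 and TET2 KO HFD at 13.1, 7.13 and 5.24. Its interaction was 1.47 on the log2 scale (SE 0.40, adjusted p = 0.39). Kat2b was at 18.7, 14.6 and 17.4 FPKM in TET2 KO chow and 13.5, 15.1 and 16.5 in TET2 KO HFD, with an interaction of -0.94 (SE 0.26, adjusted p = 0.39). L3mbtl3 was at 5.05, 3.83 and 5.09 FPKM in TET2 KO chow and 3.03, 3.38 and 3.8 in TET2 KO HFD, with an interaction of -0.85 (SE 0.27, adjusted p = 0.51). These 3 genes passed an unadjusted p under 0.05 and Chd5 did not (0.44, SE 0.43, adjusted p = 1), where 56.4% of the 975 genes passed. No gene of the 975 passed after adjustment. The 2 comparisons of TET2 KO with WT share no library. Kdm2b and Kat2b, listed in both, had opposite directions on chow and on HFD, as did 457 of the 461 genes listed in both. The genes were chosen through those tables, and direction alone therefore adds nothing particular to these 2.

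A list of 104 further genes of the same pathways, outside the name rule, gave the setting. In the WT diet comparison 26 of the 104 (25%, against 25% of all annotated protein-coding genes) were listed, of which 10 rose and 13 fell. Apobec1, a cytidine deaminase, was the only gene of that list with an adjusted p under 0.05 (log2 fold change 0.79, SE 0.13, adjusted p = 0.037). Apex1 fell and Nthl1 rose among base excision repair genes (-0.59, SE 0.20, and 0.70, SE 0.27). Of 26 Polycomb genes 7 were listed, 4 falling and 1 rising, among them Eed (-0.41, SE 0.12) and Cbx6 (0.59, SE 0.13). Dot1l and Nsd3, methyltransferases of lysines 79 and 36 of histone H3, fell by 0.50 and 0.38. Between genotypes on HFD 17 (16.3%, against 13.6% of all) were listed, 9 rising and 4 falling, with Dot1l at 0.59 (SE 0.16) and Cbx6 at -0.41 (SE 0.15). In HFD against chow in TET2 KO 7 (6.73%, against 5.63%) were listed, 5 rising and 2 falling, and Idh1, which makes the 2-oxoglutarate that TET enzymes use, fell by 0.69 (SE 0.21, adjusted p = 0.71). Between genotypes on chow 3 (2.88%, against 4.13%) were listed (Srcap, Suv39h1 and Nsd3) and none passed the test.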

How the data were processed

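CD31+ lung cells of 12 mice were analysed by poly(A) RNA sequencing, 1 library per mouse. According to the study's methods and the submitters' processing notes, the authors aligned reads to mm10 with HISAT2, obtained gene counts from featureCounts and compared pairs of groups by DESeq2. Versions, annotation release and strand setting are not given in the sources used here. The authors deposited read counts, a normalized signal (the count divided by a size factor per library and table) and FPKM for genes whose unadjusted p-value was under 0.05 in their test. They also deposited their own log2 fold changes, group means, p-values and adjusted p-values. Of these the deposited p-value columns served only to find that threshold and the number of genes adjusted (18463 for the genotypes on chow, 18703 for the genotypes on HFD, 23768 for the diets in WT and 19511 for the diets in TET2 KO), and the others were not used.

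Each comparison was fitted to the counts of all listed genes with edgeR 4.0.16 (quasi-likelihood, R 4.3.3), using the 2 groups only, no covariate and the authors' size factors. The call was an unadjusted p under 0.05, and p-values were adjusted by Benjamini-Hochberg with these numbers as the count of tests. Because unlisted genes are missing, the spread was estimated from selected genes. The interaction was fitted over 12 libraries with library totals. Genes described in full were those of the Tet, Dnmt, Uhrf and Mbd families, the called genes with non-overlapping libraries, a group mean reaching 50 normalized counts and the largest changes (8 in each direction for the diets in WT, 5 for the genotypes on HFD, 3 for the others), those listed in at least 3 tables and those of opposite direction in the diet or genotype comparisons. Other genes are named as members of their family and were chosen after their values were seen. The genes, the lists of pathway genes and markers, and the tests were chosen with earlier results of these data known. The list of dissociation genes was added after the values were seen. Alternatives were library totals, TMM on listed counts, DESeq2 1.42.0, limma-trend 3.58.1 on log2(normalized count + 1), a mean normalized count of at least 10, a replicate block, stricter calls and leaving out each library. All 44 identifiers and positions matched GENCODE M21 on GRCm38. Scripts were tested on simulated data. Library totals (36.7 to 56.8 M reads) were recovered from counts, lengths and FPKM. Counting error matters most for genes with few reads, such as Asxl3, Prdm14 and L3mbtl1. A gene that enters the counts is not reported here by name.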

Additional observations from a re-analysis of the deposited data

Results flagged for a closer look

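Differences between genotypes in the diet effect drew attention to 3 genes, each by its interaction term at an unadjusted p under 0.05 (edgeR over 12 libraries). The interaction was 1.47 on the log2 scale for Kdm2b, -0.94 for Kat2b and -0.85 for L3mbtl3. In mean log2 FPKM the diet difference was -0.83 in WT and 0.54 in TET2 KO for Kdm2b, 0.79 and -0.16 for Kat2b, and 0.39 and -0.45 for L3mbtl3. None of the 3 passed after adjustment, and 56.4% of the 975 genes in that fit passed unadjusted. Genes entered that fit only through being listed, a selection by the same differences that the interaction compares. Nothing particular to these 3 genes is therefore read from their interaction. The TET2 KO HFD value of Kdm2b rested most on replicate 1. Groups of 3 were not searched for single outlying libraries.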

How the results depend on the processing

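Counts of called genes are given in the order genotypes on chow, diets in WT, genotypes on HFD, diets in TET2 KO and interaction, and were 4, 38, 24, 3 and 3. With an adjusted p under 0.05 they were 0, 10, 0, 0 and 0. With a log2 fold change over 1 as well, the first 4 were 0, 6, 1 and 0; of all listed genes, called or not, 37.9%, 47.1%, 33.3% and 35.9% differed by more than 1 on the log2 scale, up or down. Leaving out each library gave 2 to 4, 25 to 33, 7 to 23, 2 to 3 and 3 to 3. The share of all listed genes called was 37.2% to 62.1%, 63.4% to 76.8%, 37.8% to 72.3% and 36.8% to 65.2% in the first 4. Fewer mice also mean a weaker test. Of 420 values of the named genes (other scalings, tools and filters, the block and left-out libraries, at an unadjusted p), none reversed and 369 stayed on the same side of the threshold. The other 51 no longer passed an unadjusted p under 0.05, 46 of them without a library. The cause was not tested for the others. Many of the named genes were chosen because they were called with large changes, and these values come from the same counts. Staying on the same side was thus largely set by that choice, and no robustness is read from it.

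Same-numbered libraries did not pair the samples: their deviations from group means correlated between -0.14 and 0.21, over 0.1 in 3 of 12 pairs. With the replicate block the counts were 4, 32, 19, 3 and 3. The calls lost were those of Mbd2 (0.27), Uhrf2 (-0.23), Arid5a, Setd4, Smarcad1 and Asxl3 for the diets in WT. For the genotypes on HFD they were, among others, those of Kmt2b, Kmt2c, Brd1 and Brd2. The share of all listed genes called with the block is not given here, so nothing particular to the regulators is read from these counts.

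The tables list only genes past the authors' threshold, so the share of genes that did not change is unknown here. Each group holds 3 mice. Genes with few reads, such as Prdm14, Asxl3 and L3mbtl1 in WT HFD, are limited by counting. Near-identical sequences and antisense transcripts can share reads, since the strand setting is not given.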

Other observations

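Transcripts that lie against or resemble genes of these families were listed too. Kdm6bos, antisense to Kdm6b, averaged 325 ± 39.3 normalized counts in WT HFD and 442 ± 16.5 in WT chow (SD, n = 3). Its log2 fold change was -0.44 (SE 0.15, adjusted p = 0.11 with edgeR), and it was 0.51 (SE 0.18, adjusted p = 0.25) for TET2 KO against WT on HFD. Without strand, its reads cannot be told apart from those of Kdm6b where the genes overlap. Dnmt3aos, antisense to Dnmt3a, which was not listed itself, averaged 2.12 ± 2.8 normalized counts in WT HFD, 15.2 ± 11.4 in WT chow and, in the table of TET2 KO against WT on HFD, 10.1 ± 3.5 in TET2 KO HFD. The pseudogene Smarca5-ps fell with Smarca5 in WT HFD (-1.06, SE 0.32, adjusted p = 0.087), and reads may be shared between these copies.

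Level went with direction in the WT diet comparison as a description. The 26 genes that were lower on HFD had a median of 20.1 FPKM in WT chow and the 14 higher genes 4.08. Among listed protein-coding genes the medians were 3.48 and 3.58 FPKM. Median lengths of the lower and higher genes were 8497 and 8380 bases.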
